A study of Homo sapiens with 3 samples.

Results

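The genes described here make cholesterol, control that synthesis or move sterols, and their transcripts were counted in LNCaP, a human line established from prostate cancer. The 29 genes were listed by name for their known roles, but earlier results of these data were known when the list was made. Each gene matched 1 of the 58884 rows of the deposited count table. They comprise 18 synthesis genes, 5 genes of SREBP control, 3 genes of sterol transport and 3 targets of the liver X receptors (LXR). After 24 h of growth, each of 3 LNCaP cultures spent 72 h with PPAT-CM, PVAT-CM or control-CM as 50% of its medium and with 2% fetal bovine serum. CM is conditioned medium. The series title gives PPAT as periprostatic adipose tissue, and the labels add the word tumor to it. They add the word normal to PVAT, whose letters they do not expand. All 3 cultures had the same serum, and the labels name no other agent or genetic change. Information on the tissue donors was not used here, and the use of 1 line limits the results to LNCaP. Each medium had 1 library, so no test was possible, no difference below has a replicate check, and all intervals are 95% counting intervals that cover counting error only.

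Cholesterol is built from acetyl-CoA through mevalonate and farnesyl pyrophosphate to squalene, which is oxidised and folded into lanosterol and then trimmed to cholesterol. SREBP2, and in part SREBP1, turn on these genes when membrane sterol is low. SCAP carries SREBP from the endoplasmic reticulum to the Golgi for cleavage, and the INSIG proteins hold SCAP back when sterol is plentiful. Oxysterols act through LXR in the other direction, on exporters such as ABCA1. Prostate cells are known for active lipid synthesis that responds to androgens.

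Library totals lay between 14174241 and 16965584 counts. Genes of the mitochondrial chromosome took 15.5% of counts in PPAT-CM, 21.1% in PVAT-CM and 30.8% in control-CM, and counts were therefore scaled with TMM factors, which assume that most genes do not differ. CPM below means counts scaled in this way to a common library size. All 7 luminal prostate markers were detected, with a summed level of 2470 scaled CPM in PPAT-CM, 3177 in PVAT-CM and 3174 in control-CM. Within that list KLK3 was 2.72-fold and TMPRSS2 2.66-fold lower in PPAT-CM than in control-CM. The 6 adipocyte markers summed to 90 counts in PPAT-CM, 27 in PVAT-CM and 13 in control-CM, nearly all from PLIN1, a lipid droplet coat gene, while ADIPOQ, LEP, FABP4 and LPL were at 0 in every library. The 6 leukocyte and 5 endothelial markers summed to between 10 and 35 counts a library, and 6 fibroblast markers, mostly COL1A1, to 28.9 CPM in PPAT-CM, 25.7 in PVAT-CM and 51.6 in control-CM. PTPRC, DCN and CDH5 were at 0 throughout. The part of the mitochondrial share, of the lower KLK3 and TMPRSS2 and of the PLIN1 counts in the results below was not tested. In bulk RNA, fewer cells with a transcript and less of it per cell cannot be told apart.

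Of the 29 genes 28 reached a mean count of at least 50 over the 3 libraries. The exception, CYP51A1, the lanosterol demethylase, had 37 counts in PPAT-CM, 14 in PVAT-CM and 3 in control-CM. A read-through gene on the same strand, AC000120.2, covers 79.4% of its exon length and had 0 counts in each library, and how shared reads were counted is not given in the sources used here. These counts are therefore not read as a level of CYP51A1, and no fold is given. ABCA1 reached the limit only through its PPAT-CM count, since its other libraries averaged 46.0 counts.

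A gene was called higher or lower when the scaled levels differed at least 1.5-fold. Over all genes 12.0% were higher and 8.71% lower in PPAT-CM than in control-CM, and 3.15% and 3.49% in PVAT-CM than in control-CM. In PPAT-CM against control-CM 0 of the 8 genes up to squalene passed, with 6 ratios above 1 and a median log2 ratio of 0.40, against 0.03 over all 12256 genes measured. From lanosterol to cholesterol TM7SF2 and SC5D were lower, 2 of the 7 measured genes, with 5 ratios below 1 and a median of -0.38, and SQLE and LSS had ratios below 1 that did not pass. In PVAT-CM both stretches had medians above 0 against control-CM, 0.28 and 0.31, against 0.02 over all genes, and 0 of these 15 genes passed. The sterol carriers STARD4 and NPC1 were lower in PPAT-CM, and the exporter gene ABCA1 was higher.

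For PPAT-CM against control-CM 2 of the 28 measured members were higher (7.14%), where 12.0% of all measured genes were, and 5 of 28 were lower (17.9%), where 8.71% of all genes were. Higher were TMEM97 and ABCA1, and ABCA1 passed the count limit only through the library in which it is high, so nothing is read from this share. Lower were STARD4, TM7SF2, NPC1, SC5D and SREBF1. For PVAT-CM against control-CM 1 of 28 was higher (3.57%), against 3.15% of all genes, and 2 of 28 were lower (7.14%), against 3.49%, so these shares rest on 1 and 2 genes. These were TMEM97 on the higher side and ABCG1 and SREBF1 on the lower side. For PPAT-CM against PVAT-CM 2 of 28 were higher (7.14%), against 8.56% of all genes, namely ABCA1, with the same limit, and ABCG1. A further 7 of 28 were lower (25.0%), against 6.07% of all genes, namely TM7SF2, SC5D, STARD4, NPC1, SQLE, MSMO1 and EBP. With library totals in place of TMM factors, 9 members were higher and 3 lower in PPAT-CM than in control-CM, and 3 were higher and 1 lower in PVAT-CM than in control-CM. Each pair of comparisons shares a library, so they are not independent.

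At 2-fold, PPAT-CM against control-CM left 1 higher member, ABCA1, where 3.93% of all genes passed, and 2 lower members, STARD4 and TM7SF2, where 2.74% passed. PVAT-CM against control-CM left 0 higher, with 0.465% of all genes, and 0 lower, with 0.441%. PPAT-CM against PVAT-CM left 1 higher, ABCA1, with 2.45% of all genes, and 3 lower, TM7SF2, SC5D and STARD4, with 1.47%. ABCA1 passed the count limit only through its PPAT-CM count, so nothing is read from the comparisons in which it was the higher member. The whole counting interval lay above 1 for 9 of 28 members in PPAT-CM over control-CM, against 35.0% of all genes, and below 1 for 14 of 28, against 3553 of all 12256 genes. In PVAT-CM over control-CM it lay above 1 for 16 of 28, against 24.0%, and below 1 for 4 of 28, against 20.5%. In PPAT-CM over PVAT-CM it lay above 1 for 5 of 28, against 30.7%, and below 1 for 15 of 28, against 25.6%.

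**Figure D1:**
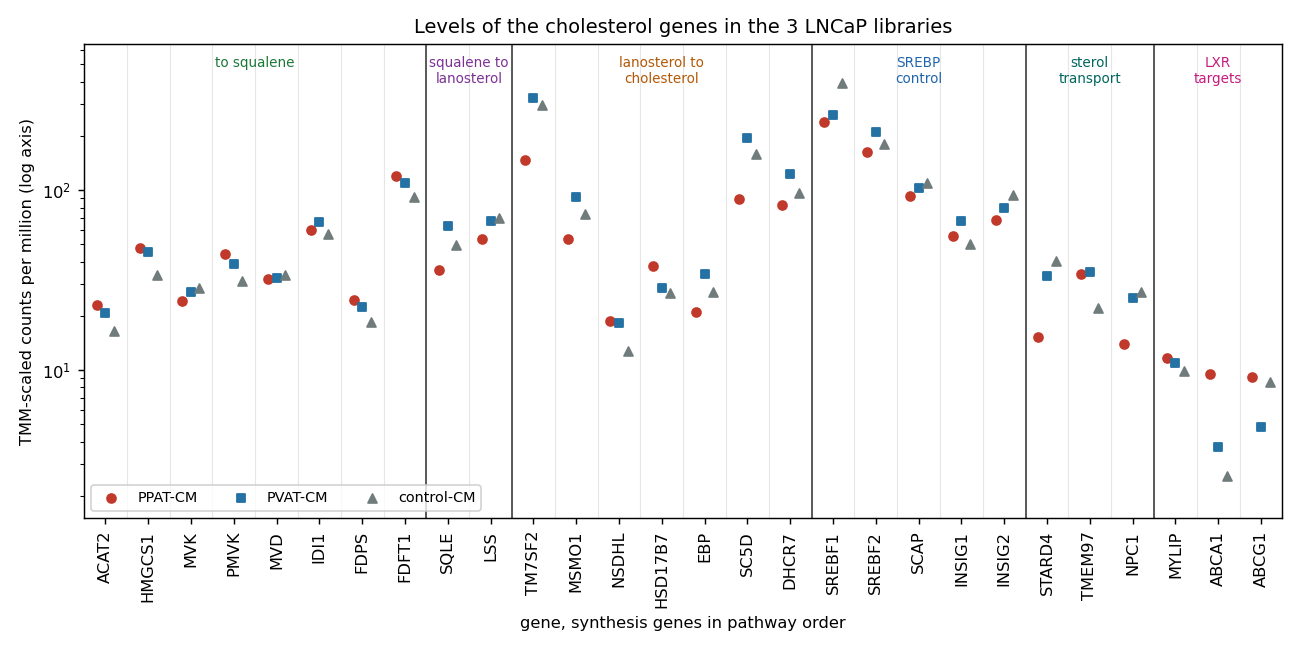
TMM-scaled CPM on a log axis for the 28 measured genes, with synthesis genes in pathway order, in PPAT-CM (circles), PVAT-CM (squares) and control-CM (triangles), 1 library each. PPAT-CM is the lowest point for 15 of the 28 genes, among them SQLE, LSS, TM7SF2, MSMO1, EBP, SC5D, STARD4 and NPC1. It is the highest for 10, among them NSDHL, HSD17B7 and ABCA1.

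Promoter windows of genes on both sides of 1 are shown so that their short elements can be compared. RefSeq windows from 250 bases before to 50 after the start site (GRCh38.p14) were found for 25 of the 29 genes, 31 windows in all. The NF-Y box CCAAT, bound by a partner of SREBP, was present on either strand in a window of 18 of these 25 genes (72.0%), against 39.7% of 27305 genes with a window. The GC box GGGCGG was present in 24 of 25 (96.0%), against 48.3%, and the E-box CACGTG in 5 of 25 (20.0%), against 8.77%. The sterol regulatory element core TCACNCCAC was present in 1 of 25 member genes (4.0%), SREBF2, against 1.39% of genes. The 27305 genes were taken whether or not they were measured in LNCaP, while 28 of the 29 members were measured. These shares are thus of unlike sets, and no excess is read from them. Both strands were searched, and no core overlapped an NF-Y box in the windows printed. HMGCS1 and SC5D have 2 windows each, of which 1 is shown. The HMGCS1 window not shown holds 0 NF-Y boxes, and the SC5D window not shown holds 1. The 5 windows below belong to HMGCS1, with levels above control-CM in both adipose media, TM7SF2, SC5D and STARD4, lower in PPAT-CM, and SREBF2, with NF-Y boxes and the sterol regulatory element core in capitals, written in the direction of the gene.
HMGCS1, chr5:43313363-43313662, minus strand: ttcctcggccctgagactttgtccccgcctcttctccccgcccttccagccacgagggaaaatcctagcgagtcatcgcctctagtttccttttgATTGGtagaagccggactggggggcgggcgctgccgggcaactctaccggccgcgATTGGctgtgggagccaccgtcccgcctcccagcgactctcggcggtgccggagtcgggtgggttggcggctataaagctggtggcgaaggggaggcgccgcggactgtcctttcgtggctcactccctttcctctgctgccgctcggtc
TM7SF2, chr11:65111622-65111921, plus strand: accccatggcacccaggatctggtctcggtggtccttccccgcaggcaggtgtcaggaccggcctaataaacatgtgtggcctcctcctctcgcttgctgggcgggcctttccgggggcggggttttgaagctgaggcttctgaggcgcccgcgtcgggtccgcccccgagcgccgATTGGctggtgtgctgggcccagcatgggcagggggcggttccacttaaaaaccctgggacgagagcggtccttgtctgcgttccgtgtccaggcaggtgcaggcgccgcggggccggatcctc
SC5D, chr11:121292521-121292820, plus strand: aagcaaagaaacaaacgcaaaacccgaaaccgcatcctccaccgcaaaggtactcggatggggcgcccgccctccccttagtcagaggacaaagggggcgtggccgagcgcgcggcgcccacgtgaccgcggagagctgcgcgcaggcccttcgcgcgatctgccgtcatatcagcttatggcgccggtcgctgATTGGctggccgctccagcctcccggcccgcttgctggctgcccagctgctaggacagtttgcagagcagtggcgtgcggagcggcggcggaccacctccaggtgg
STARD4, chr5:111512486-111512785, minus strand: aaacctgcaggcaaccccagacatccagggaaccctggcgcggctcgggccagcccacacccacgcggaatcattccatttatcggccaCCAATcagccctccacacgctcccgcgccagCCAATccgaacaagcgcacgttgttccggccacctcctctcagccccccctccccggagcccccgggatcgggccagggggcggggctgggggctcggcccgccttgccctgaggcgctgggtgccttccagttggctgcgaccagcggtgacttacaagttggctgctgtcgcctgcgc
SREBF2, chr22:41832855-41833154, plus strand: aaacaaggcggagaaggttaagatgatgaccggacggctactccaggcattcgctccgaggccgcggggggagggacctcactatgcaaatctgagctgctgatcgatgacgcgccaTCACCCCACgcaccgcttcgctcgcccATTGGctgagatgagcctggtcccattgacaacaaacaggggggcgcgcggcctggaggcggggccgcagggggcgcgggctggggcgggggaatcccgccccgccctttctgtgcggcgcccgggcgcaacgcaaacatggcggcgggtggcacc
HMGCS1 has NF-Y boxes starting 155 and 100 bases before the start site, and STARD4 has them at 161 and 130 bases. TM7SF2 has 1 at 74 bases and SC5D 1 at 56 bases. In SREBF2 the core TCACCCCAC starts 133 bases before the start site and an NF-Y box follows at 106 bases. HMGCS1, TM7SF2, SC5D and STARD4 each hold an NF-Y box and a GC box in the window shown. A match is a run of letters and not a measured binding site.

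The first stretch runs from acetyl-CoA to squalene. ACAT2, the thiolase that joins acetyl-CoA units, had 424 counts in PPAT-CM, 296 in PVAT-CM and 251 in control-CM, and was 1.39-fold (1.19 to 1.64) higher in PPAT-CM and 1.25-fold (1.06 to 1.49) higher in PVAT-CM than in control-CM. HMGCS1, which condenses the next acetyl-CoA to HMG-CoA, had 880 counts in PPAT-CM, 646 in PVAT-CM and 513 in control-CM. Its scaled level was 1.41-fold (1.27 to 1.58) higher in PPAT-CM and 1.34-fold (1.19 to 1.51) higher in PVAT-CM than in control-CM. Control-CM was the lowest library for both genes, and the interval of PPAT-CM against PVAT-CM included 1 for both.

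The kinases of mevalonate did not go together. MVK, which phosphorylates mevalonate first, had 447 counts in PPAT-CM, 385 in PVAT-CM and 436 in control-CM and was 1.18-fold (1.03 to 1.35) lower in PPAT-CM than in control-CM. PMVK, which adds the next phosphate, had 815, 552 and 476 counts in the same order and was 1.41-fold (1.26 to 1.58) higher in PPAT-CM and 1.23-fold (1.09 to 1.40) higher in PVAT-CM. The levels of PMVK were ordered PPAT-CM, PVAT-CM, control-CM, and those of MVK the other way round, though the intervals of MVK with PVAT-CM included 1. MVD, which decarboxylates the product to isopentenyl pyrophosphate, had 32.2 CPM in PPAT-CM, 32.5 in PVAT-CM and 33.8 in control-CM, and each of its 3 intervals included 1. Its ratios to control-CM lay below 1 here and above 1 with library totals, as did that of MVK for PVAT-CM.

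With TMM factors control-CM was the lowest library for the steps that follow. IDI1, the isomerase of isopentenyl pyrophosphate, had 59.8 CPM in PPAT-CM, 66.3 in PVAT-CM and 57.2 in control-CM and was 1.16-fold (1.06 to 1.27) higher in PVAT-CM than in control-CM. Its interval for PPAT-CM over control-CM included 1 (0.955 to 1.14), and that ratio was below 1 with upper-quartile factors. FDPS, which makes farnesyl pyrophosphate, had 24.4, 22.5 and 18.4 CPM in PPAT-CM, PVAT-CM and control-CM, a 1.32-fold (1.14 to 1.54) higher level in PPAT-CM than in control-CM. FDFT1, the squalene synthase that commits farnesyl units to sterols, had 2208, 1571 and 1387 counts in that order. Its level was 1.31-fold (1.23 to 1.41) higher in PPAT-CM and 1.21-fold (1.12 to 1.30) higher in PVAT-CM than in control-CM. With TMM factors 0 of the 8 genes of this stretch reached 1.5-fold in any comparison. Over all genes 12.0% were higher in PPAT-CM and 3.15% in PVAT-CM than in control-CM, and 8.56% in PPAT-CM than in PVAT-CM. Control-CM was the lowest library for 6 of the 8, and for 38.0% of all measured genes. With library totals ACAT2, HMGCS1, PMVK, FDPS and FDFT1, 5 of the 8, passed 1.5-fold in PPAT-CM over control-CM, with log2 ratios from 0.63 to 0.74, where the median of all genes was 0.27. ACAT2 and FDPS each share exon bases with genes on the opposite strand, among them TCP1 and RUSC1-AS1, and the strand setting of the counting is not given in the sources used here.

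**Figure D2:**
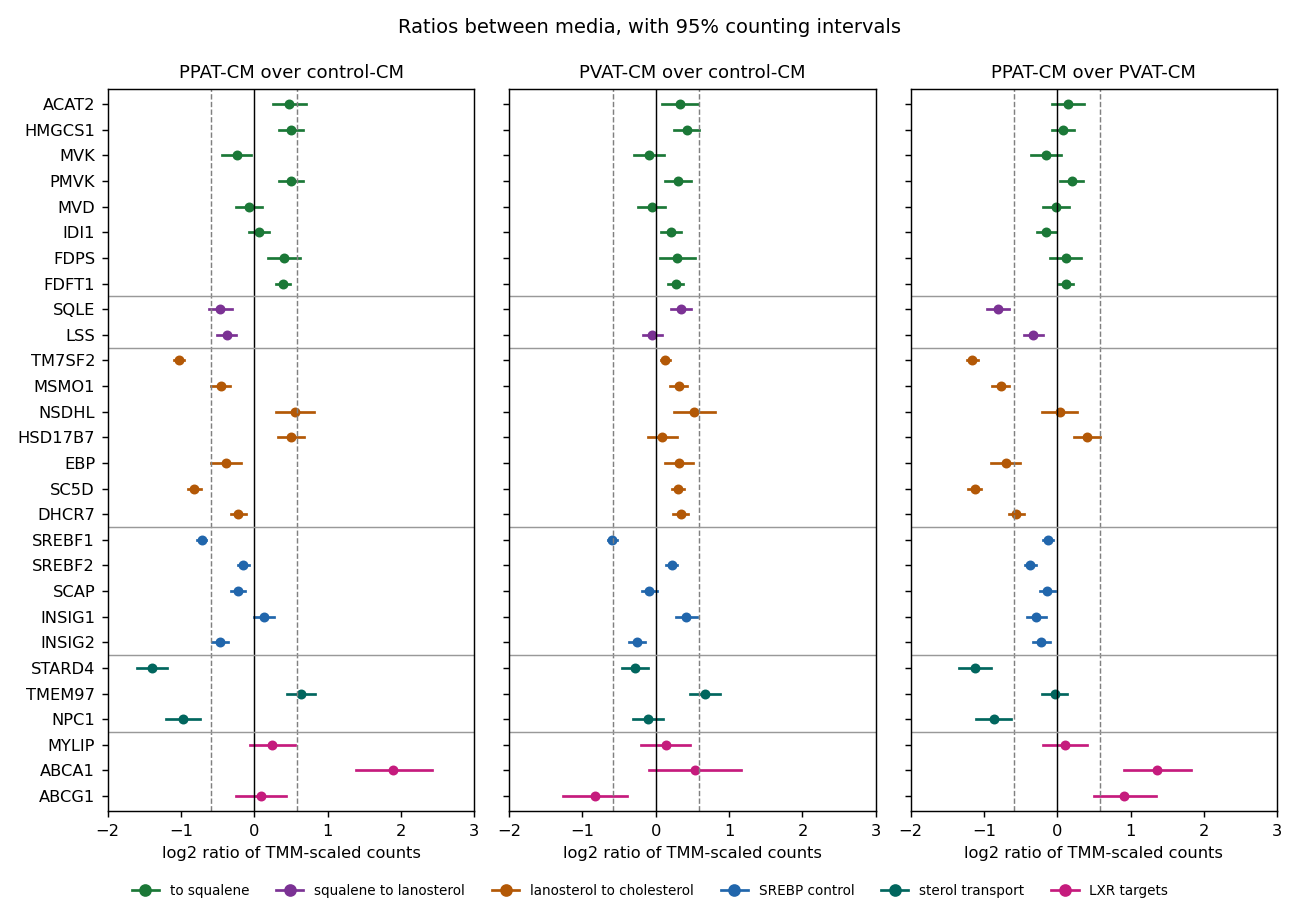
Log2 ratios of TMM-scaled counts for the 28 measured genes in pathway order, for PPAT-CM over control-CM, PVAT-CM over control-CM and PPAT-CM over PVAT-CM, with 95% counting intervals as horizontal lines and dashed lines at 1.5-fold. In the left panel most genes up to FDFT1, and NSDHL and HSD17B7 after it, lie right of 0. SQLE, LSS, TM7SF2, MSMO1, EBP, SC5D and DHCR7 lie left of it. In the middle panel 14 of the 17 synthesis genes lie right of 0 with TMM factors.

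At squalene control-CM was not the lowest library, unlike for IDI1, FDPS and FDFT1. SQLE, the squalene epoxidase and a rate-limiting enzyme, had 665 counts in PPAT-CM, 901 in PVAT-CM and 756 in control-CM. It was 1.38-fold (1.24 to 1.53) lower in PPAT-CM and 1.27-fold (1.15 to 1.40) higher in PVAT-CM than in control-CM, and its PPAT-CM level was 1.75-fold (1.58 to 1.93) lower than its PVAT-CM level. LSS, which folds the epoxide into lanosterol, had 53.8 CPM in PPAT-CM, 67.6 in PVAT-CM and 69.9 in control-CM, 1.30-fold (1.19 to 1.42) lower in PPAT-CM than in control-CM. PPAT-CM was the lowest library for both genes, as for 36.6% of all measured genes. LSS was ordered like MVK and MVD, but for each of these genes the interval of PVAT-CM over control-CM included 1.

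From lanosterol to cholesterol, TM7SF2, a sterol reductase of the nuclear and endoplasmic reticulum membrane (ENSG00000149809, chromosome 11, 65111845 to 65116384, GRCh38), had the most counts of the stretch. It had 2689 counts in PPAT-CM, 4646 in PVAT-CM and 4515 in control-CM, and was 2.04-fold (1.94 to 2.14) lower in PPAT-CM than in control-CM and 2.23-fold (2.12 to 2.34) lower than in PVAT-CM. Per kb of exon it had 42.9 CPM in PPAT-CM, 95.6 in PVAT-CM and 87.3 in control-CM, in each library more than any other member. PPAT-CM stood apart from the other libraries, which differed 1.09-fold (1.05 to 1.14).

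SC5D, the sterol desaturase near the end of the pathway (ENSG00000109929, chromosome 11, 121292453 to 121308694), had 1647 counts in PPAT-CM, 2787 in PVAT-CM and 2397 in control-CM. It was 1.76-fold (1.66 to 1.88) lower in PPAT-CM than in control-CM, and 1.24-fold (1.17 to 1.31) higher in PVAT-CM than in control-CM. With library totals its log2 ratio for PPAT-CM over control-CM was -0.58, just under 1.5-fold. Against PVAT-CM, PPAT-CM gave SC5D the 113th lowest ratio and TM7SF2 the 102nd lowest among the 12256 measured genes. DHCR7, the reductase that completes cholesterol, had 1530, 1745 and 1468 counts in PPAT-CM, PVAT-CM and control-CM. Its PPAT-CM level was 1.47-fold (1.37 to 1.58) lower than in PVAT-CM and 1.16-fold (1.08 to 1.25) lower than in control-CM, a direction that turned with library totals. EBP, the sterol isomerase before SC5D, had 20.9 CPM in PPAT-CM, 34.0 in PVAT-CM and 27.3 in control-CM. With TMM factors TM7SF2, SC5D, DHCR7 and EBP shared 1 order, with PVAT-CM highest, control-CM between and PPAT-CM lowest.

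The enzymes that strip methyl groups from the sterol ring were split. MSMO1, the methyl oxidase, had 982 counts in PPAT-CM, 1301 in PVAT-CM and 1115 in control-CM and was 1.38-fold (1.26 to 1.5) lower in PPAT-CM than in control-CM. NSDHL, the decarboxylating dehydrogenase that acts after it, had 344, 261 and 193 counts in the same order and was 1.47-fold (1.23 to 1.76) higher in PPAT-CM than in control-CM. HSD17B7, the ketoreductase that completes the demethylation, had 697, 408 and 408 counts and was 1.41-fold (1.25 to 1.60) higher in PPAT-CM than in control-CM. NSDHL was also 1.44-fold (1.19 to 1.74) higher in PVAT-CM than in control-CM, whereas for HSD17B7 that interval included 1 (0.925 to 1.22). MSMO1 thus followed SC5D and EBP, and NSDHL and HSD17B7 did not. HSD17B7 has a pseudogene copy, HSD17B7P2, with 241, 216 and 223 counts, and reads can be exchanged between the copies, so its value is uncertain.

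Summed over genes, the 8 genes to squalene had 376 CPM in PPAT-CM, 363 in PVAT-CM and 311 in control-CM, a 1.21-fold (1.16 to 1.25) higher level in PPAT-CM than in control-CM. The 8 genes from lanosterol to cholesterol had 452 CPM in PPAT-CM, 817 in PVAT-CM and 693 in control-CM, 1.53-fold (1.49 to 1.58) lower in PPAT-CM than in control-CM and 1.81-fold (1.76 to 1.86) lower than in PVAT-CM. TM7SF2 and SC5D dominate this sum. Without them the level in PPAT-CM was 0.911 times (0.870 to 0.953) that in control-CM and 0.731 times (0.700 to 0.764) that in PVAT-CM, and in PVAT-CM it was 1.24 times (1.19 to 1.30) that in control-CM. All 18 synthesis genes together took 918 CPM in PPAT-CM, 1311 in PVAT-CM and 1124 in control-CM.

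**Figure D3:**
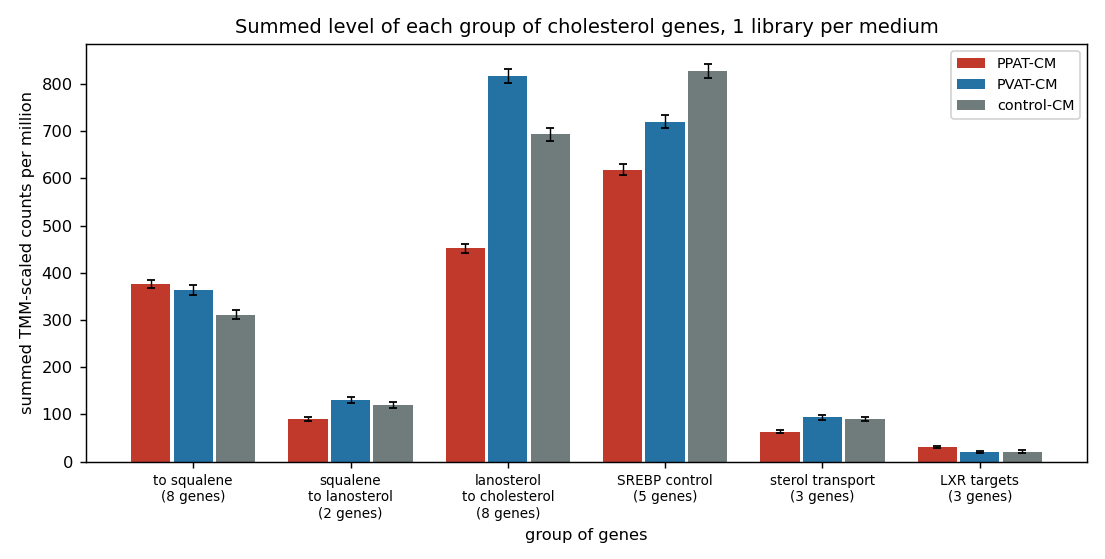
Summed TMM-scaled CPM of each group of genes in PPAT-CM, PVAT-CM and control-CM, with exact Poisson 95% counting intervals as error bars. The sum from lanosterol to cholesterol is lowest in PPAT-CM (452) and highest in PVAT-CM (817), while the sum to squalene differs little between the adipose media (376 and 363).

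In order of level, PPAT-CM was the highest library for 7 of the 17 measured synthesis genes and the lowest for 9, with 1 in between. It was an extreme for 78.1% of all measured genes. PVAT-CM was the lowest library, with TMM factors, for 0 of the 17 synthesis genes and for 25.4% of all measured genes. In PVAT-CM against control-CM 14 of 17 synthesis genes had a ratio above 1, against 53.1% of all measured genes. A counting interval above 1 was found for 13 of 17, against 24.0%. The other 3, MVK, MVD and LSS, had ratios above 1 with library totals. With TMM factors 0 of the 17 reached 1.5-fold, where 3.15% of all genes were higher and 3.49% lower. With library totals NSDHL did, at a log2 ratio of 0.66. Counting intervals are narrower for genes with more counts.

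Among the regulators, SREBF1 was lower in both adipose media. SREBF1 encodes SREBP1, which acts mainly on fatty acid genes (ENSG00000072310, chromosome 17, 17810399 to 17837002). It had 4383 counts in PPAT-CM, 3714 in PVAT-CM and 5954 in control-CM. Its level was 1.65-fold (1.58 to 1.71) lower in PPAT-CM and 1.51-fold (1.45 to 1.57) lower in PVAT-CM than in control-CM, while the adipose media differed 1.09-fold (1.05 to 1.14). Control-CM was thus the high library. With library totals the log2 ratios to control-CM were -0.48 in PPAT-CM and -0.46 in PVAT-CM, both under 1.5-fold. SREBF2, which encodes the cholesterol regulator SREBP2, had 163 CPM in PPAT-CM, 211 in PVAT-CM and 182 in control-CM, the order of SC5D and EBP. The ratio of SREBF2 was 0.899 (0.853 to 0.947) for PPAT-CM and 1.16 (1.10 to 1.22) for PVAT-CM, each over control-CM, and the first lay above 1 with library totals.

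The genes of the proteins that gate SREBP differed less than 1.5-fold in every comparison. SCAP, the sterol-sensing escort, had 93.3 CPM in PPAT-CM, 103 in PVAT-CM and 109 in control-CM, and its ratios to control-CM were below 1 here and above 1 with library totals. INSIG1, an anchor of SCAP whose own gene is a target of SREBP, had 1017 counts in PPAT-CM, 961 in PVAT-CM and 765 in control-CM and was 1.34-fold (1.21 to 1.47) higher in PVAT-CM than in control-CM. The interval of INSIG1 for PPAT-CM over control-CM included 1 (0.997 to 1.21). INSIG2, the other anchor, had 68.1, 79.3 and 94.6 CPM in PPAT-CM, PVAT-CM and control-CM, and was 1.39-fold (1.29 to 1.5) lower in PPAT-CM and 1.19-fold (1.10 to 1.29) lower in PVAT-CM than in control-CM. The INSIG genes therefore had different orders, with control-CM lowest for INSIG1 and highest for INSIG2. All 5 regulator genes were below PVAT-CM in PPAT-CM, where 47.7% of all measured genes were. The largest of these 5 differences was 1.29-fold (1.23 to 1.36), for SREBF2.

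Sterol transport held the lowest ratio to control-CM among the 28 measured members, that of STARD4 in PPAT-CM. STARD4, a soluble cholesterol carrier and known SREBP target (ENSG00000164211, chromosome 5, 111496033 to 111512590), had 282 counts in PPAT-CM, 474 in PVAT-CM and 613 in control-CM. Its level was 2.64-fold (2.28 to 3.05) lower in PPAT-CM than in control-CM. PPAT-CM was 2.17-fold (1.87 to 2.52) lower than PVAT-CM, and PVAT-CM was 1.22-fold (1.08 to 1.37) lower than control-CM. NPC1, which exports cholesterol from lysosomes, had 255 counts in PPAT-CM, 360 in PVAT-CM and 412 in control-CM, 1.96-fold (1.67 to 2.30) lower in PPAT-CM than in control-CM. TMEM97, a membrane protein that binds NPC1 and is also a known SREBP target, went the other way with 631, 501 and 335 counts. It was 1.55-fold (1.36 to 1.78) higher in PPAT-CM and 1.59-fold (1.38 to 1.83) higher in PVAT-CM than in control-CM. TMEM97 shares 11.9% of its exon bases with IFT20 on the opposite strand, which had 522 counts in PPAT-CM, 369 in PVAT-CM and 318 in control-CM, and the part of that overlap in the TMEM97 counts was not tested. With upper-quartile factors the TMEM97 log2 ratio for PPAT-CM was 0.56, just under 1.5-fold. For STARD4 and NPC1 PPAT-CM was the low library, and for TMEM97 control-CM was.

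ABCA1, an LXR target, had the highest ratio to control-CM among the 28 measured members, of which it is 1 only through its PPAT-CM count. It exports cholesterol to apolipoproteins (ENSG00000165029, chromosome 9, 104781002 to 104928237). ABCA1 had 175 counts in PPAT-CM, 53 in PVAT-CM and 39 in control-CM. It was 3.70-fold (2.60 to 5.38) higher in PPAT-CM than in control-CM and 2.56-fold (1.87 to 3.55) higher than in PVAT-CM, while the interval of PVAT-CM over control-CM included 1 (0.938 to 2.25). Per kb of exon it stayed the lowest measured member, at 0.839 CPM in PPAT-CM, 0.328 in PVAT-CM and 0.227 in control-CM. ABCG1, an exporter to lipoprotein particles, had 168 counts in PPAT-CM, 69 in PVAT-CM and 130 in control-CM. It was 1.77-fold (1.31 to 2.41) lower in PVAT-CM than in control-CM, and the interval of PPAT-CM over control-CM included 1 (0.843 to 1.35). MYLIP, a ubiquitin ligase that lowers lipoprotein receptors, had 215, 155 and 150 counts, and its 3 intervals included 1. PPAT-CM was the highest library for all 3 genes, as for 41.5% of all measured genes, but the genes did not share an order. ABCA1 was measured only through that library, and for ABCG1 and MYLIP the interval of PPAT-CM over control-CM included 1.

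Other genes around the pathway were counted from 6 lists. Of 10 genes of SREBP processing and sterol-regulated degradation, all measured, 2 were at least 1.5-fold higher in PPAT-CM than in control-CM and 0 lower, where 12.0% of all genes were higher, with a median log2 ratio of 0.08. In PVAT-CM against control-CM 1 was higher and 0 lower, where 3.15% of all genes were higher, with a median of 0.17. SPRING1, which is needed for SREBP cleavage, had 1523 counts in PPAT-CM, 480 in PVAT-CM and 425 in control-CM and was 2.96-fold (2.65 to 3.30) higher in PPAT-CM than in control-CM. PPAT-CM was the high library and the others differed 1.20-fold (1.05 to 1.37). RNF139, a ubiquitin ligase of the endoplasmic reticulum, had 452, 296 and 200 counts and was 1.86-fold (1.57 to 2.21) higher in PPAT-CM and 1.57-fold (1.31 to 1.89) higher in PVAT-CM than in control-CM.

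The isoprenoid branches, which take farnesyl units to dolichol, coenzyme Q and prenylated proteins, held 0 of 13 genes past 1.5-fold in any comparison, with medians between -0.01 and 0.02. A list of 14 genes of sterol transport and esterification, of which 12 were measured, also held 0 past 1.5-fold in each comparison. Over all genes 12.0% were higher and 8.71% lower in PPAT-CM than in control-CM. The shares were 3.15% and 3.49% for PVAT-CM over control-CM, and 8.56% and 6.07% for PPAT-CM over PVAT-CM. Nothing is read from a 0 in lists this short. Of the 8 LXR receptors and other LXR targets 7 were measured, and LPCAT3, a phospholipid acyltransferase, was the 1 past 1.5-fold. Its calls were against control-CM, where 12.0% of all genes were higher in PPAT-CM and 3.15% in PVAT-CM. It had 228 counts in PPAT-CM, 153 in PVAT-CM and 105 in control-CM, 1.79-fold (1.42 to 2.28) higher in PPAT-CM and 1.55-fold (1.20 to 2.01) higher in PVAT-CM than in control-CM. NR1H3, which encodes LXR alpha, had 159, 124 and 184 counts. Of the 5 oxysterol and bile acid enzymes 2 were measured, and CYP46A1, a cholesterol hydroxylase, had 119 counts in PPAT-CM, 139 in PVAT-CM and 210 in control-CM. It was 2.14-fold (1.70 to 2.70) lower in PPAT-CM than in control-CM and 1.51-fold (1.17 to 1.94) lower than in PVAT-CM. Over all genes 8.71% were at least 1.5-fold lower in PPAT-CM than in control-CM, and 6.07% than in PVAT-CM.

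Among 10 fatty acid genes under SREBP 1 was at least 1.5-fold lower and 0 were higher in PPAT-CM than in control-CM, where 8.71% of all genes were lower, with a median of -0.28, and in PVAT-CM against control-CM 0 passed, with a median of 0.06. SCD, the stearoyl-CoA desaturase, had 4100 counts in PPAT-CM, 6637 in PVAT-CM and 6423 in control-CM, the same order as TM7SF2, and was 1.90-fold (1.83 to 1.98) lower in PPAT-CM than in control-CM and 2.09-fold (2.01 to 2.17) lower than in PVAT-CM. FADS1, a desaturase of polyunsaturated fatty acids, had 921, 1100 and 835 counts in PPAT-CM, PVAT-CM and control-CM, and its PPAT-CM level was 1.54-fold (1.41 to 1.68) lower than that in PVAT-CM. FASN, the fatty acid synthase, had a log2 ratio of -0.06 for PPAT-CM and -0.17 for PVAT-CM, each over control-CM.

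**Figure D4:**
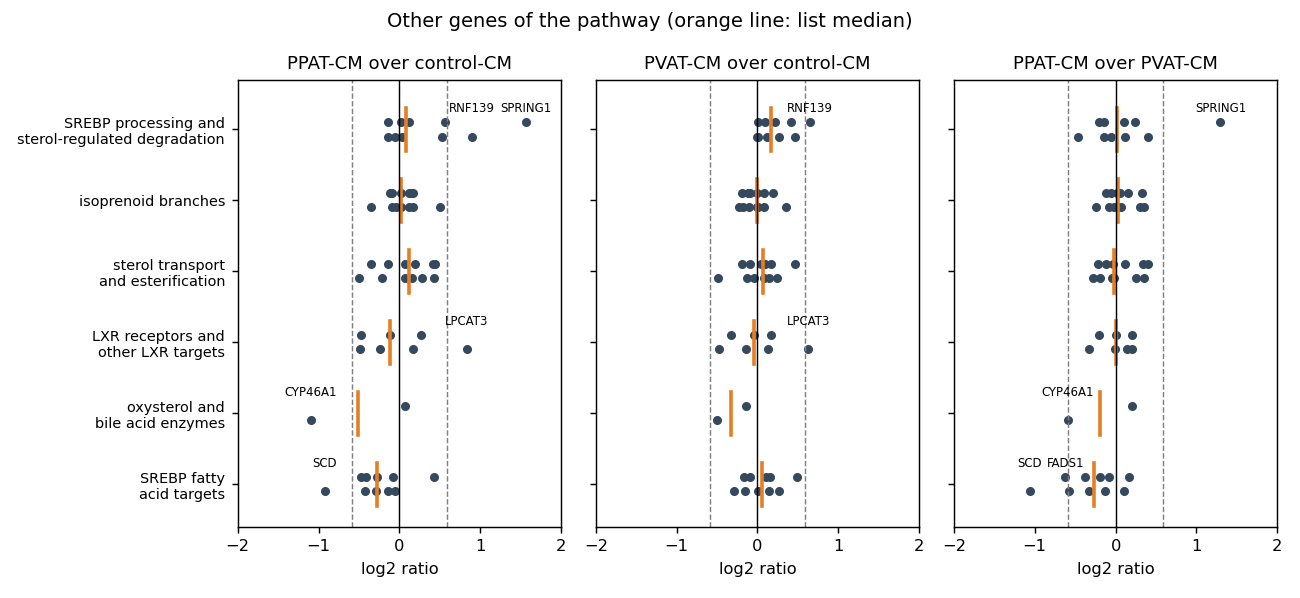
Log2 ratios of the measured genes of 6 other lists of the pathway, for PPAT-CM over control-CM, PVAT-CM over control-CM and PPAT-CM over PVAT-CM, with 1 point a gene, an orange line at the list median and dashed lines at 1.5-fold. Genes past 1.5-fold are named, and they are SPRING1, RNF139, LPCAT3, CYP46A1 and SCD in the left panel.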

How the data were processed

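Per the labels' protocols, the RNA came from an RNeasy mini kit preparation and the libraries from a KAPA mRNA kit. The authors deposited raw whole-number counts per gene for 3 libraries. The submitters' processing notes name FastQC, Trimmomatic, HISAT2, featureCounts and edgeR with GRCh38, whose versions, settings and strand mode were not given in the sources used here. Reads of overlapping or near-identical genes may therefore have been dropped, shared or merged.

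Names, coordinates and exon lengths came from GENCODE release 29, which all 29 members matched. Counts were scaled with TMM factors (edgeR 4.0.16, R 4.3.3), which were 1.08 in PPAT-CM, 1.01 in PVAT-CM and 0.917 in control-CM. Genes with a mean count of at least 50 were kept. The log2 ratio used a pseudocount of 0.5, and printed folds are ratios of scaled counts with exact conditional binomial (Clopper-Pearson) intervals (Python 3.11.15, scipy 1.17.1). The intervals treat each read as a molecule of its own, though no molecular identifiers are named. With 1 library per medium no residual degrees of freedom remain, so no p-value was computed and a 1.5-fold rule was used. At these depths a count of 0 allows up to 3 counts, or 0.163 CPM in PPAT-CM, 0.210 in PVAT-CM and 0.198 in control-CM. The steps were tested on simulated counts.

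All members are named, and other list genes are named when at least 1.5-fold apart, up to 3 a list, with VPS51, STARD4-AS1, MMAB, IFT20, FASN and NR1H3 added after their values were seen. Members and lists were chosen with earlier results of these data known. Alternatives were other scalings, including DESeq2 1.42.0 size factors, other count limits, a pseudocount of 5 and other call rules.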

Additional observations from a re-analysis of the deposited data

How the results depend on the processing

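No replicate could be left out, and no paired analysis was possible because each medium has 1 library. With library totals the median over all genes moved from 0.03 to 0.27 for PPAT-CM over control-CM, from 0.02 to 0.15 for PVAT-CM over control-CM and from 0.02 to 0.13 for PPAT-CM over PVAT-CM. The synthesis median then was 0.17, against -0.07 with TMM factors, for PPAT-CM over control-CM, a turn of sign, and 0.44, against 0.30, for PVAT-CM over control-CM. Relative to all genes it was -0.10 and 0.28 under both scalings. This had to be so, since a change of scaling moves all log2 ratios by nearly the same amount. A lower count limit, which lets in CYP51A1, could move it. For PPAT-CM over control-CM it was then -0.013 with a mean count of at least 10 and -0.004 with no filter. For PVAT-CM over control-CM it was 0.30 in both cases. Members called higher and lower with totals were 9 and 3 for PPAT-CM and 3 and 1 for PVAT-CM, each over control-CM. For PPAT-CM over control-CM upper-quartile factors left 1 higher member, a mean count of at least 200 left 1, and 2-fold left 1 higher and 2 lower. For PVAT-CM over control-CM a mean count of at least 10, or no filter, gave 2 higher members with CYP51A1 let in, at least 200 left 1 lower, and 2-fold left 0 higher and 0 lower. For PPAT-CM over PVAT-CM at least 200 left 0 higher, since ABCA1 and ABCG1 were then not measured, and 2-fold left 1 higher and 3 lower. The 1.5-fold call itself changed under some scaling or pseudocount for 10 of 28 members in PPAT-CM over control-CM. It changed for 3 in PVAT-CM over control-CM and for 1 in PPAT-CM over PVAT-CM. Of the 7, 3 and 9 members called in the 3 comparisons, 0 turned direction. That 0 could not have come out otherwise, since these settings moved the ratios by less than 1.5-fold. Depth limits CYP51A1 most, with at most 37 counts a library, and among the measured members ABCA1, ABCG1 and MYLIP, with at most 215.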

Other observations

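Genes that share exon bases with members add values to the account, and they were chosen for that overlap after the member values were seen. VPS51, a subunit of a vesicle tethering complex that lies next to TM7SF2 on the same strand and shares 16 exon bases with it, had 1682 counts in PPAT-CM, 888 in PVAT-CM and 762 in control-CM. Its log2 ratio was 0.86 for PPAT-CM over control-CM, whereas that of TM7SF2 was -1.03. STARD4-AS1, antisense to STARD4, had 11, 17 and 24 counts, a log2 ratio of -1.36 for PPAT-CM over control-CM beside -1.40 for STARD4, and the counting may not have separated the strands. MMAB, a cobalamin adenosyltransferase gene that faces MVK, had 984, 956 and 763 counts and a log2 ratio of 0.41 for PVAT-CM over control-CM, beside -0.09 for MVK.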
